A study of Mus musculus with 11 samples.

Results

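DNA replication genes were followed in ovaries of wild-type mice at 3 ages. The set holds 39 genes chosen by symbol from the 54232 genes of the deposited count table, and all 39 were found there and passed the filter on low counts. It covers origin licensing (Orc1, Orc6, Cdc6, Cdt1, Gmnn and Mcm2 to Mcm7), helicase activation (Mcm10, Cdc45, Gins1, Gins2 and Gins3), and the polymerases with their primase (Pola1, Pola2, Prim1, Prim2, Pold1, Pole and Pole2). The sliding clamp Pcna and its loader subunits Rfc2, Rfc3, Rfc4 and Rfc5, the strand-binding and lagging-strand genes Rpa1, Rpa2, Fen1 and Lig1, and the nucleotide supply genes Rrm1, Rrm2, Tyms and Tk1 follow. The last 3 are the cyclin genes Ccne1 and Ccne2 and Uhrf1.

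RNA was taken from ovary tissue of wild-type (WT) mice labelled 2, 18 and 24 months old and sequenced in bulk, with 4, 4 and 3 libraries. The title of the series sets young, old and post-reproductive ovaries side by side. No strain, treatment or allele is given in the labels used here. Separate animals are not stated either, so the spread behind each p-value is that between samples and may be technical. Library names of the 24 month group read 22m and those of the 2 month group 8wk, and the ages used here are those of the sample titles. Total counts were 26061630 to 33407509 per library, except 5231724 and 8892915 for 18 month replicates 3 and 4. Counts of those 2 libraries differed by about counting noise (chi-square per gene 1.11, against 32.2 or more for every other pair of the same age), so they were summed and counted as 1 sample. All values therefore rest on 4, 3 and 3 samples. Defining markers of ovarian cells were present at every age, with granulosa cell markers summing to 2293 to 7049 CPM (counts scaled to the size of each library) per sample.

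As background, a cell copies its DNA once per cycle in steps. Before S phase the origin recognition complex, with Cdc6 and Cdt1, loads rings of Mcm2 to Mcm7 onto DNA, and geminin (Gmnn) blocks Cdt1 from loading them again. In S phase Cdc45 and the GINS complex turn each ring into a running helicase, and polymerases held by the Pcna clamp copy both strands. In the adult ovary the dividing cells are largely granulosa cells of growing follicles, while oocytes rest in meiosis and do not replicate DNA. Many replication genes are transcribed before S phase through E2F factors.

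Stretches of 250 bases before the start site are shown for 5 members, because they hold or lack the E2F element in genes at both ends of the age differences reported below. They were read from the RefSeq promoter table of build GRCm38.p6, run 5′ to 3′ on the gene's strand, and capitals mark matches to the E2F element or the CCAAT box. Uhrf1, Cdc6 and Mcm10 had 3 of the largest differences, Mcm6 had the highest level of the Mcm ring genes at 2 months, and Orc6 was among the least changed.
Uhrf1, chr17:56304063-56304312, plus strand: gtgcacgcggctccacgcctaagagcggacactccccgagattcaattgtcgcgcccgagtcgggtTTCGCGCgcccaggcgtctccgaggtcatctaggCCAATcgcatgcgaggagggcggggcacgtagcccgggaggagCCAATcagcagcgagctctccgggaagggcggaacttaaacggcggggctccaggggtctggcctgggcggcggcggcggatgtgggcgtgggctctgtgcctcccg
Cdc6, chr11:98907901-98908150, plus strand: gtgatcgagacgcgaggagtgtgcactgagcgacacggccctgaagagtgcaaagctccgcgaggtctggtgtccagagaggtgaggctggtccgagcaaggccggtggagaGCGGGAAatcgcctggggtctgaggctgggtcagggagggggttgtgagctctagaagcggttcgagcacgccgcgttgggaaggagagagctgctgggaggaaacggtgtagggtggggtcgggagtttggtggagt
Mcm6, chr1:128359706-128359955, minus strand: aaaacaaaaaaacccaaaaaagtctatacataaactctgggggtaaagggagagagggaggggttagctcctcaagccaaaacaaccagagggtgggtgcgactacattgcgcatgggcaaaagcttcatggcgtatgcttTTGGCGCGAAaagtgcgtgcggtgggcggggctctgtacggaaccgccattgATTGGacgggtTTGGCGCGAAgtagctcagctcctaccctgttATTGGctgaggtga
Mcm10, chr2:5012792-5013041, minus strand: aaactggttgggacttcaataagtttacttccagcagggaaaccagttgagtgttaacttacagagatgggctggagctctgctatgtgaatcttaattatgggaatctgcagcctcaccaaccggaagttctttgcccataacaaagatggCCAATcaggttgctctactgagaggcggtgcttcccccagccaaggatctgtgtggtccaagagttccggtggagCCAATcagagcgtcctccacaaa
Orc6, chr8:85299382-85299631, plus strand: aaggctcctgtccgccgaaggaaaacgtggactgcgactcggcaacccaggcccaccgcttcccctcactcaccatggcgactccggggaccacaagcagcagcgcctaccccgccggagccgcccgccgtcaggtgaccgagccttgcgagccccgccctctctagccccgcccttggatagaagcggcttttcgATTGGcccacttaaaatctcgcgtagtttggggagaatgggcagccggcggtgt
The Uhrf1 stretch, the second of 2 windows listed for that gene, has 1 E2F element and 2 CCAAT boxes, and that of Cdc6 has 1 E2F element alone. In Mcm6 each of 2 runs of capitals reading TTGGCGCGAA is a pair of overlapping E2F matches, 1 per strand, and a CCAAT box on the opposite strand, read here as ATTGG, follows each. The Mcm10 and Orc6 stretches hold CCAAT boxes only, 2 and 1.

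Windows of 300 bases, which run from 250 before to 50 after the start site, were found for 31 of the 39 members. No window was used for Mcm4, Gmnn, Gins1, Gins2, Prim2, Pole, Rfc2 and Ccne2. The E2F element was searched under 4 spellings on both strands (TTCCCGC, then the variant TTGGCGC, then the variant TTGCCGC, and the variant TTCGCGC), with overlapping matches counted separately. It was in 20 of the 31 members (64.5%), against 10.9% of all 27025 genes in the table and 17.6% of the 13099 of them that were tested here. The CCAAT box (CCAAT, both strands) was in 19 of 31 (61.3%), against 41.1% of all genes and 41.8% of tested genes. Another motif, the cell cycle homology element known from mitotic genes (TTTGAA or its variant TTCGAA, both strands), was in 6 of 31 (19.4%), against 21.7% and 16.9%. A match is only a run of letters in this window.

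Across the set, transcripts were less abundant at both older ages than at 2 months. At 18 months 27 of the 39 members fell, none rose and 12 did not pass the test, with a median log2 fold change of -0.99 (range -2.35 to -0.35) against 0.01 over all 20331 tested genes. Of all tested genes 5.51% fell and 6.04% rose in that comparison. At 24 months 32 members fell, none rose and 7 did not pass, with a median of -1.001 (range -2.62 to -0.27) against 0.03 over all genes. There 15.8% of all genes fell and 19.2% rose. With counts scaled by library totals alone, 19 and 23 members fell, against 3.26% of all genes that fell and 6.52% that rose at 18 months, and 9.19% and 24.8% at 24 months. All 39 estimates were below 0 at both ages. Both comparisons use the same 2 month samples, so they are not independent of each other. Calls are an adjusted p under 0.05 in edgeR's quasi-likelihood test, adjusted by Benjamini-Hochberg over all tested genes. In bulk tissue, fewer cells of a type and less RNA per cell cannot be told apart.

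Summed over the 39 members, the level was 1647, 1582, 929.5 and 1229.7 CPM in the 2 month samples. It was 742, 649 and 681 CPM at 18 months and 746, 603 and 659 CPM at 24 months. Here and below, values stand in replicate order, the third 18 month value is the sum of replicates 3 and 4, and CPM are scaled by TMM factors. Every older sample lay below every 2 month sample, and the 2 older ages overlapped. As a share of all counts, the members took 0.128 ± 0.0362% at 2 months (SD, n = 4), 0.0694 ± 0.00448% at 18 months (SD, n = 3) and 0.0717 ± 0.00604% at 24 months (SD, n = 3).

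**Figure D1:**
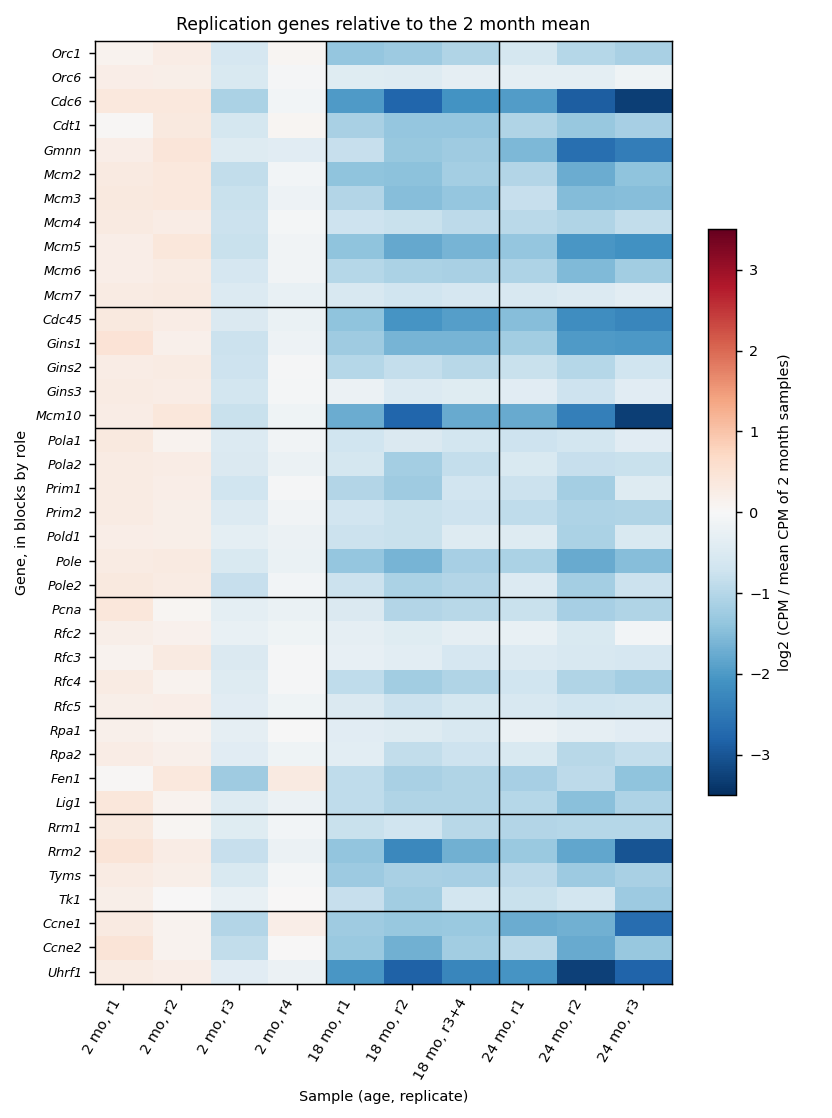
Log2 ratio of each member's CPM to its 2 month mean, with the 39 genes in rows by role and the 10 samples in columns by age. All 39 members lie below their 2 month mean in each of the 6 older samples, and 2 month replicate 3 is the lowest of the 2 month columns for all 39.

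Single members separated the ages to different degrees. In 31 members every 2 month sample lay above every 18 month sample, which held for 13.7% of all tested genes. Against 24 months this held for 28 members and 20.4% of all genes. The 8 members whose samples overlapped at 18 months were Orc6, Mcm4, Gins3, Prim1, Pole2, Rfc3, Rpa2 and Fen1. In each of them the overlap came through 2 month replicate 3, which was the lowest 2 month sample in all 39 members, at 0.356 to 0.787 of the mean of the other 3.

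That sample also had the highest summed corpus luteum markers of its age (23551 CPM against 6053 to 22133 in the others). The same held for theca and steroid synthesis markers (54230 CPM against 24671 to 38526), a list whose sum comes mostly from Star, Cyp11a1 and Hsd3b1. It held for red blood cell markers (350.1 CPM against 19.9 to 44.5) and endothelium markers (813 CPM against 399 to 558). Its macrophage, T cell and B and plasma cell sums were also the highest, and its stroma and smooth muscle sum the lowest. It had the lowest oocyte sum (295 CPM against 499.8 to 687) and granulosa cell sum (5854 CPM against 6656 to 7049). The part of these markers in its lower replication values was not tested. Without it, 37 members fell at 18 months and 38 at 24 months, against 7.11% and 15.3% of all genes. The 18 month count was also 16, 5 and 3 without 18 month replicate 1, replicate 2 or the summed replicates 3 and 4, and 5, 7 and 10 without 2 month replicate 1, 2 or 4. The estimates stayed below 0 for all 39 members in each of these fits. The share of all genes that fell at 18 months moved as well. It was 3.84%, 0.950% and 0.514% without 18 month replicate 1, replicate 2 or the summed sample. Without 2 month replicate 1, 2 or 4 it was 0.802%, 1.24% and 1.36%.

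**Figure D2:**
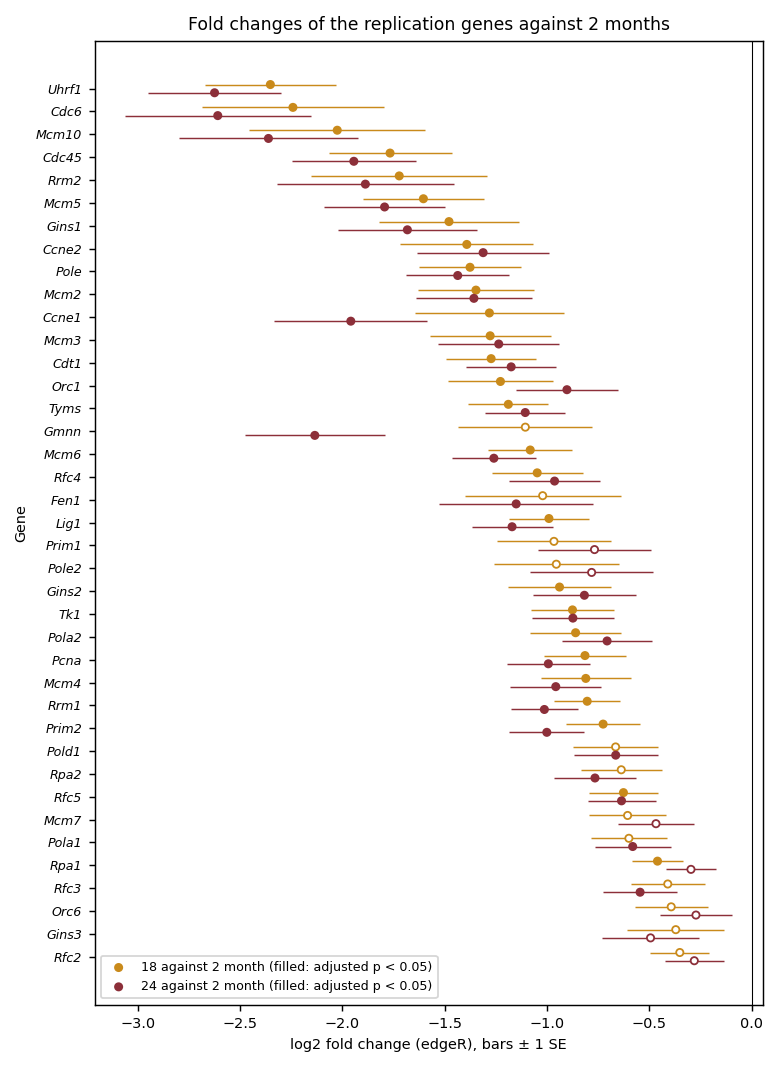
Log2 fold change of each member at 18 and at 24 months against 2 months, with its standard error and open symbols for genes that did not pass the test. The points run from -2.62 for Uhrf1 to -0.27 for Orc6, and all lie left of 0.

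Origin licensing genes fell in 8 of 11 cases at 18 months (median log2 fold change -1.23) and in 9 of 11 at 24 months (median -1.24). With 1 sample left out, 0 to 11 fell at the younger of the 2 ages and 7 to 11 at the older. Mcm6 (ENSMUSG00000026355, chr1:128331590-128359664), a ring subunit and the group's most abundant member by CPM, gave 126, 131, 71.2 and 98.9 CPM at 2 months, 53.2, 49.4 and 48.8 CPM at 18 months and 51, 36.7 and 46.3 CPM at 24 months. Its lowest 2 month sample stood above its highest older sample, and the log2 difference was -1.08 (SE 0.205, adjusted p = 0.0165) at 18 months and -1.26 (SE 0.206, adjusted p = 0.00354) at 24 months. Mcm5 (ENSMUSG00000005410, chr8:75109569-75128439), another ring subunit, gave 73.5, 82.5, 35.9 and 56.6 CPM at 2 months, 23.4, 17.9 and 20.01 CPM at 18 months and 24.1, 15.3 and 14.4 CPM at 24 months. No older sample reached the 2 month range. Its log2 difference was -1.60 (SE 0.295, adjusted p = 0.0154) at 18 months and -1.79 (SE 0.297, adjusted p = 0.00371) at 24 months, the largest within the ring at both ages.

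Cdt1 (ENSMUSG00000006585, chr8:122568015-122573554), which brings the rings to origins, gave 16.5, 20.4, 10.5 and 17 CPM at 2 months, 7.34, 6.31 and 6.36 CPM at 18 months and 7.73, 6.43 and 7.27 CPM at 24 months. The older samples lay close together and below all young ones. Cdt1 fell by 1.27 on the log2 scale at 18 months (SE 0.221, adjusted p = 0.0137) and by 1.18 at 24 months (SE 0.219, adjusted p = 0.00531). Orc6 (ENSMUSG00000031697, chr8:85299632-85308278), a subunit of the origin recognition complex, gave 24.9, 24.2, 14.5 and 20.5 CPM at 2 months, 15.8, 15.5 and 16.8 CPM at 18 months and 16.5, 16.7 and 19 CPM at 24 months. Here 2 month replicate 3 was the lowest of all samples and the ages overlapped. Its log2 difference was -0.39 (SE 0.179, adjusted p = 0.173) at 18 months and -0.27 (SE 0.178, adjusted p = 0.250) at 24 months, and it did not pass the test at either age.

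Among the rest of the group, Orc1, Cdc6, Mcm2, Mcm3 and Mcm4 fell at both ages, by 0.81 to 2.24 on the log2 scale at 18 months. Mcm2, Mcm3 and Mcm4, all ring subunits, gave -1.35, -1.28 and -0.81 there and -1.36, -1.24 and -0.96 at 24 months. Cdc6, the loader that recruits the rings, had the largest difference of the group, with a mean of 15.5 ± 6.11 CPM in the young samples (SD, n = 4), 3.29 ± 0.902 CPM in the 18 month and 2.56 ± 1.27 CPM in the 24 month samples (SD, n = 3 each). Orc1 shares 22409 bases with Gm12743 on the opposite strand. Mcm7 did not pass the test at either age (-0.61, adjusted p = 0.0626, and -0.47, adjusted p = 0.0744).

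Gmnn, the inhibitor of Cdt1, was singled out after its values were seen. It gave 15, 17.2, 9.38 and 9.68 CPM at 2 months, 7.34, 5.11 and 5.37 CPM at 18 months and 4.33, 2.05 and 2.38 CPM at 24 months. It passed the test at 24 months (-2.13, SE 0.342, adjusted p = 0.00321) and narrowly missed it at 18 months (-1.11, SE 0.327, adjusted p = 0.0559). All 24 month samples were below all 18 month samples, which also held for Prim2, Rrm1 and Ccne1. The share of all genes with that order was not counted. For Gmnn the difference of -1.03 between 24 and 18 months (SE 0.348) did not pass over all genes, with an adjusted p of 0.443.

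The 6 ring subunits assemble in equal numbers, and their transcript levels per length are set beside each other here. Per kilobase of the principal transcript, Mcm6 was highest at 2 months with 36.7 ± 9.50 CPM (SD, n = 4) and Mcm5 lowest with 18.4 ± 6.07 CPM. The other 4 lay between 19.0 and 23.6 CPM per kilobase and no neighbours in this order differed beyond their SDs. At 18 months Mcm6 (17.3 ± 0.827) and Mcm7 (15.5 ± 0.769) were the highest and Mcm5 (6.04 ± 0.817) the lowest. At 24 months Mcm7 (17.1 ± 1.18) and Mcm6 (15.3 ± 2.50) overlapped within their spread, and Mcm5 (5.31 ± 1.60) was again lowest. The highest mean level was 2.00 times the lowest at 2 months, 2.87 times at 18 months and 3.22 times at 24 months, a description with no test. On the opposite strand Mcm7 shares 421 bases with Ap4m1 and 64 with Cops6. These had 6200 and 24266 counts over all libraries, against 16744 for Mcm7.

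**Figure D3:**
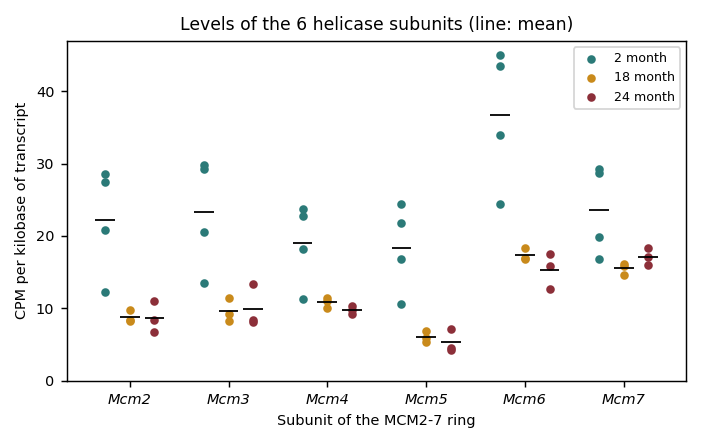
CPM per kilobase of Mcm2 to Mcm7 by age, with samples as points and the mean as a line. Mcm5 has the lowest mean at each age, from 18.4 at 2 months to 5.31 at 24 months, and Mcm7 has the highest mean at 24 months, 17.1.

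Helicase activation genes fell in 4 of 5 cases at both ages, with medians of -1.48 and -1.68, and Gins3 was the exception each time. With 1 sample left out, 0 to 4 fell at 18 months and 3 to 5 at 24 months. Cdc45 (ENSMUSG00000000028, chr16:18780447-18811987), a core part of the running helicase, gave 19.7, 18.6, 10.9 and 13.2 CPM at 2 months, 5.88, 3.75 and 4.11 CPM at 18 months and 5.52, 3.44 and 3.23 CPM at 24 months. Every older sample was well below the lowest young one. Its log2 difference was -1.77 (SE 0.300, adjusted p = 0.0134) at 18 months and -1.94 (SE 0.302, adjusted p = 0.00293) at 24 months. Mcm10 (ENSMUSG00000026669, chr2:4989714-5012791), a factor that helps start the helicase, gave 21.1, 23, 10.2 and 15.9 CPM at 2 months, 5.24, 2.59 and 5.17 CPM at 18 months and 5.15, 3.33 and 1.80 CPM at 24 months. All 6 older values lay below all 4 young ones, with log2 differences of -2.02 (SE 0.430, adjusted p = 0.0221) at 18 months and -2.36 (SE 0.436, adjusted p = 0.00528) at 24 months.

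Gins3 (ENSMUSG00000031669, chr8:95633453-95645060), a GINS subunit, gave 10.7, 10.4, 5.69 and 8.40 CPM at 2 months, 7.58, 6.27 and 6.56 CPM at 18 months and 6.72, 5.29 and 6.75 CPM at 24 months. Its 2 month replicate 3 lay among the older samples, and differences of -0.37 and -0.49 did not pass (adjusted p = 0.322 and 0.128). Its partners Gins1 (-1.48 at 18 months and -1.68 at 24 months) and Gins2 (-0.94 and -0.82) fell at both ages. Gins2 shares 2758 bases with Gse1 on the opposite strand. The strand setting of the counting is not given in the sources used here, so reads of overlapping genes cannot be assigned with certainty. Other such overlaps include 209 bases of Cdc45 with Ufd1, 171 of Orc6 with Vps35 and 499 of Rfc5 with Wsb2. Ufd1, Vps35 and Wsb2 had 22734, 45450 and 27849 counts over all libraries, against 2601, 5401 and 4880 for these members.

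Polymerase and primase genes fell in 3 of 7 cases at 18 months (Pola2, Prim2 and Pole, group median -0.86) and in 5 of 7 at 24 months (with Pola1 and Pold1 added, median -0.77). With 1 sample left out, 0 to 7 fell at 18 months and 2 to 7 at 24 months. Pole (ENSMUSG00000007080, chr5:110286306-110337474), the catalytic subunit of the leading-strand polymerase, gave 31.2, 31.7, 17.5 and 21.7 CPM at 2 months, 9.92, 8.26 and 11.4 CPM at 18 months and 11.8, 7.54 and 9.04 CPM at 24 months. No older sample reached the young range, with log2 differences of -1.38 (SE 0.251, adjusted p = 0.0154) and -1.44 (SE 0.251, adjusted p = 0.00437), the largest in the group at both ages. Prim2 (ENSMUSG00000026134, chr1:33453810-33669795), the large primase subunit, gave 22.7, 21.3, 13.5 and 17.2 CPM at 2 months, 11.7, 10.9 and 11.3 CPM at 18 months and 10.1, 8.91 and 9.04 CPM at 24 months. It fell at both ages, by 0.73 on the log2 scale at 18 months (SE 0.182, adjusted p = 0.0340) and by 1.001 at 24 months (SE 0.183, adjusted p = 0.00496).

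Pold1 (ENSMUSG00000038644, chr7:44532746-44548849), the catalytic subunit of the lagging-strand polymerase, gave 36.5, 35.8, 24.3 and 26.7 CPM at 2 months, 18.2, 17.8 and 22.3 CPM at 18 months and 22.6, 14.3 and 21.5 CPM at 24 months. All young samples were above all older ones, yet only the 24 month difference passed (-0.66, adjusted p = 0.0321, against -0.67, adjusted p = 0.0640, at 18 months). Pole2 (ENSMUSG00000020974, chr12:69201773-69228195), the second subunit of the leading-strand polymerase, gave 9.45, 9.17, 4.26 and 6.97 CPM at 2 months, 4.43, 3.47 and 3.64 CPM at 18 months and 5.34, 3.24 and 4.45 CPM at 24 months. Its 2 month replicate 3 fell among the older samples, and neither difference passed (-0.95, adjusted p = 0.0690, and -0.78, adjusted p = 0.0681). Pola1 (-0.60 and -0.58) and Pola2 (-0.86 and -0.71), subunits of the polymerase that extends primers, both passed at 24 months and Pola2 also at 18 months. Prim1, the catalytic primase subunit, gave -0.97 and -0.77 and passed at neither age (adjusted p = 0.0529 and 0.0554).

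The sliding clamp and its loader fell in 3 of 5 cases at 18 months (Pcna, Rfc4 and Rfc5, group median -0.63) and in 4 of 5 at 24 months (with Rfc3 added, median -0.64). With 1 sample left out, the ranges were 0 to 4 and 2 to 4 genes. Pcna (ENSMUSG00000027342, chr2:132249162-132253314), the ring that holds polymerases on DNA, gave 109, 87, 65.6 and 71.3 CPM at 2 months, 58.5, 41 and 42.4 CPM at 18 months and 48.7, 36.9 and 39.8 CPM at 24 months. It had the highest level per length of all 39 members at each age, 54.8 ± 12.8 CPM per kilobase at 2 months (SD, n = 4), 31.2 ± 6.41 at 18 months and 27.5 ± 4.07 at 24 months (SD, n = 3 each). The log2 difference was -0.81 (SE 0.202, adjusted p = 0.0331) at 18 months and -0.99 (SE 0.203, adjusted p = 0.00716) at 24 months, with no overlap between young and older samples.

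Rfc4 (ENSMUSG00000022881, chr16:23113943-23127737), a loader subunit, gave 13, 11.6, 7.76 and 10.4 CPM at 2 months, 5.78, 4.57 and 5.17 CPM at 18 months and 6.61, 5.18 and 4.68 CPM at 24 months. Every older sample was below every young one, and the log2 differences were -1.05 (SE 0.223, adjusted p = 0.0218) and -0.96 (SE 0.221, adjusted p = 0.0109). Its locus shares 194 bases with Eif4a2 on the opposite strand, which had 152882 counts over all libraries against 2190 for Rfc4. Rfc3 (ENSMUSG00000033970, chr5:151642756-151651242), another loader subunit, gave 21.5, 24.4, 14 and 19.1 CPM at 2 months, 16.2, 15.2 and 13.1 CPM at 18 months and 14.1, 13.3 and 13.2 CPM at 24 months. Its 2 month replicate 3 overlapped both older ages, and the difference passed at 24 months (-0.55, adjusted p = 0.0410) but not at 18 months (-0.41, adjusted p = 0.161). The loader subunit Rfc5 fell at both ages, with log2 differences of -0.63 and -0.64. Rfc2 passed at neither age (-0.35 and -0.28, adjusted p = 0.137 and 0.151), and its locus shares 1784 bases with Lat2 on the opposite strand.

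Of the strand-binding and Okazaki fragment genes, Rpa1 and Lig1 fell at 18 months, and Rpa2, Fen1 and Lig1 fell at 24 months. The group medians were -0.81 and -0.96, and leaving out 1 sample gave 0 to 4 and 1 to 4 genes that fell. Lig1 (ENSMUSG00000056394, chr7:13277283-13311433), the ligase that joins Okazaki fragments, gave 67.2, 55.9, 37.8 and 44.2 CPM at 2 months, 27.5, 24.9 and 24.9 CPM at 18 months and 25.6, 18.7 and 24.1 CPM at 24 months. Young and older samples were apart, with log2 differences of -0.99 (SE 0.197, adjusted p = 0.0183) and -1.17 (SE 0.198, adjusted p = 0.00388). Its locus shares 1439 bases with Zswim9 on the opposite strand. Rpa1 (ENSMUSG00000000751, chr11:75298166-75348324), the large subunit of the single-strand binding complex, gave 96.6, 92.1, 67.9 and 83.8 CPM at 2 months, 65.2, 62.1 and 58.3 CPM at 18 months and 74.5, 68.9 and 64.4 CPM at 24 months.

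For Rpa1 only the 18 month difference passed (-0.46, SE 0.124, adjusted p = 0.0425). At 24 months it was -0.30 (SE 0.123, adjusted p = 0.0857), and replicates 1 and 2 of that age lay above the lowest young sample. Between 24 and 18 months the difference was 0.16 (adjusted p = 0.663). Fen1 (ENSMUSG00000024742, chr19:10199132-10204169), the flap nuclease, was the member with the fewest counts, 253 over all libraries. Fen1 gave 1.28, 1.62, 0.528 and 1.55 CPM at 2 months, 0.673, 0.568 and 0.596 CPM at 18 months and 0.560, 0.654 and 0.465 CPM at 24 months. Counting error is large at this depth, and genes on the opposite strand overlap its locus: Tmem258, with 13167 counts, over 156 bases, and Gm10143, with 110 counts, over 3253 bases. With the strand setting not given, low counts of Fen1 need not mean low abundance. Its differences were -1.02 (SE 0.381, adjusted p = 0.107) and -1.15 (SE 0.377, adjusted p = 0.0395). Rpa2, the middle subunit of the single-strand binding complex, gave -0.64 (adjusted p = 0.0644) and -0.77 (adjusted p = 0.0168).

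All 4 nucleotide supply genes fell at both ages, with medians of -1.03 and -1.06. With 1 sample left out, 1 to 4 fell at 18 months and all 4 fell at 24 months. Rrm1 (ENSMUSG00000030978, chr7:102441695-102469771), the large subunit of ribonucleotide reductase, gave 129.7, 106, 75.9 and 94.4 CPM at 2 months, 59.6, 62.8 and 51.8 CPM at 18 months and 49.9, 50.5 and 50.4 CPM at 24 months. Its 24 month samples were nearly equal, no older sample reached the young range, and its log2 differences were -0.80 (SE 0.161, adjusted p = 0.0185) and -1.01 (SE 0.162, adjusted p = 0.00320). Rrm2 (ENSMUSG00000020649, chr12:24708241-24714146), the small subunit made in S phase, gave 40.6, 35.4, 17.1 and 25.9 CPM at 2 months, 11.5, 6.27 and 9.34 CPM at 18 months and 12, 8.51 and 3.66 CPM at 24 months. All older samples were below all young ones, and the log2 differences were -1.72 (SE 0.430, adjusted p = 0.0344) and -1.89 (SE 0.432, adjusted p = 0.0111).

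Tyms (ENSMUSG00000025747, chr5:30058202-30073617), thymidylate synthase, gave 30.6, 28.7, 17.3 and 23.9 CPM at 2 months, 10.5, 11.4 and 11.1 CPM at 18 months and 13.2, 10.4 and 11.4 CPM at 24 months. It fell by 1.19 on the log2 scale at 18 months (SE 0.196, adjusted p = 0.0128) and by 1.11 at 24 months (SE 0.194, adjusted p = 0.00441). Tyms and Uhrf1 were the only 2 members that fell at 18 months under each of the 19 alternative settings. At 24 months 21 members did so. In the setting with the lowest share, 0.514% of all genes fell at 18 months and 7.08% at 24 months. The share of all genes that fell under every setting was not counted. Tk1, the salvage enzyme thymidine kinase, fell by 0.88 and 0.87 on the log2 scale.

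Uhrf1 and the E cyclins fell at both ages in 3 of 3 cases, with medians of -1.39 and -1.96. With 1 sample left out, 1 to 3 fell at 18 months and 2 to 3 at 24 months. Uhrf1 (ENSMUSG00000001228, chr17:56303321-56323486), which brings the maintenance methyltransferase to newly copied DNA, gave 89.6, 86.9, 56.1 and 63.8 CPM at 2 months, 17.9, 10.5 and 15.2 CPM at 18 months and 17.7, 7.71 and 10.7 CPM at 24 months. Even the lowest young sample stood far above the highest older one. Its log2 differences, -2.35 (SE 0.320, adjusted p = 0.00948) at 18 months and -2.62 (SE 0.324, adjusted p = 0.00204) at 24 months, were the largest of the 39 members.

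Ccne2 (ENSMUSG00000028212, chr4:11191351-11204779), a cyclin that starts S phase with Cdk2, gave 14.5, 11.8, 5.85 and 10.7 CPM at 2 months, 4.32, 3.31 and 4.64 CPM at 18 months and 5.52, 3.16 and 4.27 CPM at 24 months. No older sample reached the lowest young one, and the log2 differences were -1.39 (SE 0.326, adjusted p = 0.0274) and -1.31 (SE 0.323, adjusted p = 0.0142). It shares 5622 bases with Ints8 on the opposite strand. Ccne1 (ENSMUSG00000002068, chr7:38097984-38107534), the other E cyclin, gave 6.45, 5.66, 2.56 and 6.09 CPM at 2 months, 2.20, 2.08 and 2.12 CPM at 18 months and 1.57, 1.62 and 0.814 CPM at 24 months. Its older samples all lay below the young ones, with log2 differences of -1.28 (SE 0.364, adjusted p = 0.0496) and -1.96 (SE 0.374, adjusted p = 0.00576).

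**Figure D4:**
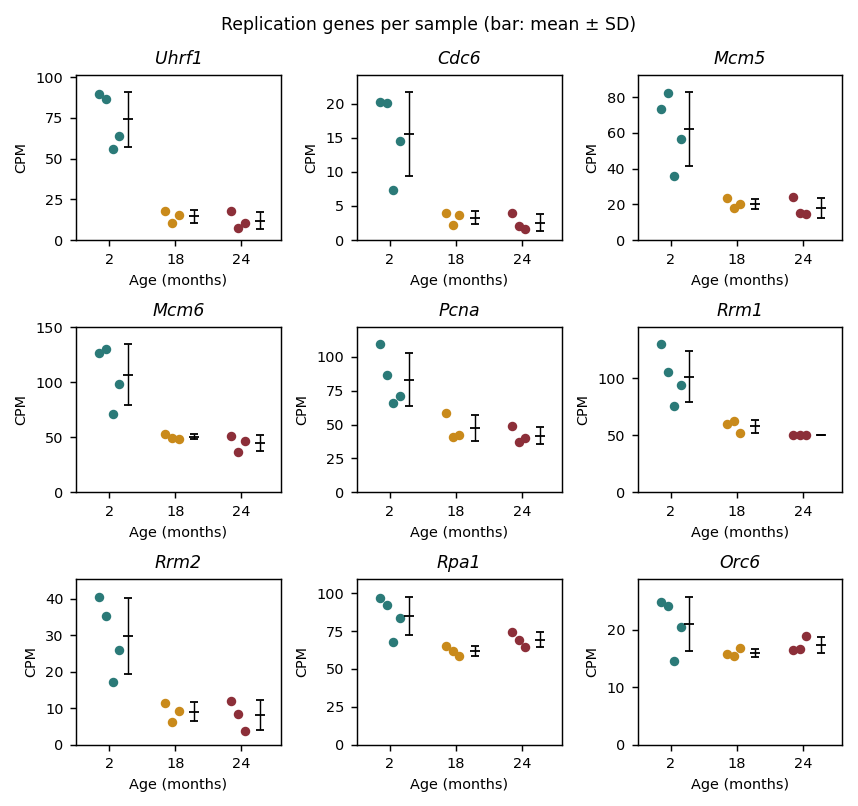
CPM per sample at 2, 18 and 24 months for 9 members from the role groups, with the mean and SD of each age. Uhrf1 and Cdc6 show wide gaps between young and older samples, whereas the points of Orc6 overlap and those of Rpa1 at 24 months reach the lowest young sample.

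No member passed the test between 24 and 18 months. In that comparison 0.00492% of all tested genes, 1 gene, were called. Of the 39 estimates 22 were below 0 and 17 above, the median was -0.06 against 0.03 over all genes, and the range ran from -1.03 for Gmnn to 0.32 for Orc1. At an unadjusted p under 0.05 there was 1 member of the 39, Gmnn, in edgeR's test. The share of all genes at that threshold was not counted, so nothing is read from this count. DESeq2 also called no member. Replicate numbers may pair these 2 ages, and a replicate block called no member either.

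Fold changes were set beside the motif counts. The 20 members with the E2F element had a median log2 fold change of -1.01 at 18 months, and 11 of them fell. The 11 without it had a median of -0.88, and 10 of them fell. At 24 months the medians were -0.99 and -0.99, with 16 of 20 and 9 of 11 that fell. Uhrf1 and Cdc6 hold the element and had the largest differences, while Mcm7, Gins3, Prim1 and Pole2 hold it and passed at neither age. Of the members that lack it in this window, Orc6 passed at neither age, while Mcm10 and Pcna were among those that fell at both. These are descriptions with no test.

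Of 44 replication genes outside the set, 20 fell at 18 months and 27 at 24 months, none rose, and the medians were -0.57 and -0.65. The counts were 24 and 32 without 2 month replicate 3, and with each other sample left out in turn the fewest were 0 and 18. Dnmt1, the maintenance DNA methyltransferase, had means of 209.9 ± 34.7 CPM in young samples (SD, n = 4), 106 ± 15.3 in 18 month samples and 88.7 ± 14.5 in 24 month samples (SD, n = 3 each), with log2 differences of -0.99 (SE 0.168, adjusted p = 0.0134) and -1.24 (SE 0.170, adjusted p = 0.00219). Chaf1a, a histone chaperone at the fork, fell by 1.28 and 1.27 on the log2 scale (adjusted p = 0.0146 and 0.00473). Topbp1, a scaffold for helicase activation and the checkpoint, fell by 0.75 and 0.63 (adjusted p = 0.0165 and 0.00989).

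Partners of members in the same complexes were also looked up, after their values were seen. Of the other subunits of the origin recognition complex, Orc5 fell at both ages (-0.46, adjusted p = 0.0481, and -0.42, adjusted p = 0.0309). Orc2 passed at 24 months only (-0.48, adjusted p = 0.0114, against -0.38, adjusted p = 0.0532, at 18 months). Orc3 and Orc4 passed at neither age, with -0.01 (adjusted p = 0.973) and 0.03 (adjusted p = 0.856) at 18 months and 0.11 (adjusted p = 0.307) and 0.08 (adjusted p = 0.525) at 24 months. Gins4, Pole3 and Pole4 passed at 24 months only (-0.67, -0.50 and -0.42, adjusted p = 0.00802, 0.0148 and 0.0154). Pold2, Pold3, Pold4, Rfc1 and Rpa3 passed at neither age. Rrm2b, the ribonucleotide reductase subunit used outside S phase, gave 0.36 at 18 months (adjusted p = 0.0725), against -1.72 for Rrm2. At 24 months it gave 0.28 (adjusted p = 0.0843), against -1.89 for Rrm2.

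Of 22 genes of S phase transcription and kinase control, 7 fell at 18 months, and 11 fell and 1 rose at 24 months. The medians were -0.37 and -0.41, and leaving out 1 sample gave 0 to 10 and 6 to 12 that fell. E2f1, an activator of replication genes, fell from 19.1 ± 3.88 to 6.18 ± 1.36 and 4.52 ± 1.85 CPM (log2 -1.63 (SE 0.298, adjusted p = 0.0154) and -2.08 (SE 0.304, adjusted p = 0.00255)). Ccna2, the cyclin of S phase and mitosis, fell by 1.71 and 2.04 on the log2 scale (adjusted p = 0.0154 and 0.00307), and E2f7, a repressor of the same family, gave -1.79 and -1.79 (adjusted p = 0.0185 and 0.00663). The gene that rose was Ccnd1, a cyclin of early G1, at 24 months (1.04 (SE 0.307, adjusted p = 0.0273)), with 16.2 ± 2.51 CPM at 2 months and 33.4 ± 17.2 at 24 months.

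Mitosis genes fell in 19 of 20 cases at 18 months and in 20 of 20 at 24 months, with medians of -1.69 and -2.14. The 18 month count was as low as 1 with 1 sample left out, and the 24 month count at least 19. Those with the smallest adjusted p at 18 months were Kif11, a spindle motor (-1.71, adjusted p = 0.0124), Nusap1, a microtubule-binding protein (-1.66, adjusted p = 0.0128), and Cenpe, a kinetochore motor (-1.65, adjusted p = 0.0134). The summed CPM of the 39 replication genes was 1.46 ± 0.0801 times that of the mitosis genes at 2 months (SD, n = 4). It was 2.44 ± 0.172 times at 18 months and 3.41 ± 1.29 times at 24 months (SD, n = 3 each), where replicate 3 gave 4.88. These ratios are a description, and every older sample lay above every young one.

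**Figure D5:**
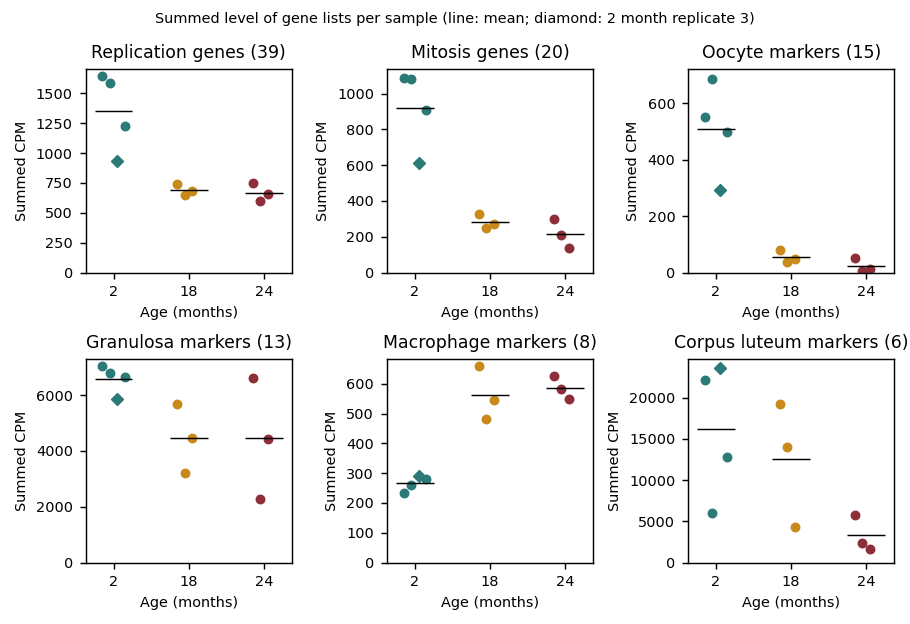
Summed CPM per sample of the replication genes, the mitosis genes and marker lists at the 3 ages, with 2 month replicate 3 drawn as a diamond. Replication, mitosis and oocyte sums are lower in every older sample than in every young one, and macrophage sums are higher.

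Cell type markers moved with age too. Oocyte markers fell in 14 of 15 cases at 18 months and in 15 of 15 at 24 months, with sums of 295 to 687 CPM in young samples, 38.7 to 81.4 CPM in 18 month samples and 7.54 to 51.6 CPM in 24 month samples. Granulosa cell markers fell in 3 of 13 cases at 18 months and 4 of 13 at 24 months, with sums of 5854 to 7049, 3196 to 5687 and 2293 to 6627 CPM. The 3 that fell at 18 months were the estrogen receptor Esr2 (-1.24, adjusted p = 0.0169), the follicle-stimulating hormone receptor Fshr (-1.53, adjusted p = 0.0187) and Amh, made by growing follicles (-2.16, adjusted p = 0.0289). The other 10 ran from -0.94 for Inhbb to 0.74 for Cyp19a1 on the log2 scale and did not pass.

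Immune markers went the other way. Macrophage markers rose in 7 of 8 and 8 of 8 cases (sums of 232 to 292, 481 to 661 and 548 to 625 CPM in the order of the ages). T cell markers rose in 5 of 8 and 8 of 8 (8.83 to 12.6, 27.6 to 38.3 and 19.9 to 54.5 CPM), and B and plasma cell markers in 2 of 7 and 4 of 7 (4.35 to 16.9, 92.7 to 343 and 75.1 to 1240.1 CPM). Surface epithelium markers rose in 4 of 7 and 5 of 7 (105 to 139.6, 220.2 to 538 and 194 to 678 CPM), and stroma and smooth muscle markers in 2 of 8 and 3 of 8 (1457 to 2009.9, 2500.1 to 3977 and 2830.5 to 4893 CPM). Endothelium markers passed in 0 of 5 cases at both ages. Corpus luteum markers fell in 0 of 6 and 3 of 6 cases, and theca and steroid synthesis markers in 0 of 7 and 1 of 7. Red blood cell markers passed in 0 of the 4 that were tested. No marker was at 0 in every sample, and those at 0 in a 24 month sample were Figla of the oocyte list and Hba-a2 of the red blood cell list. The part of these marker changes in the replication values was not tested.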

How the data were processed

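Per the labels' protocols, Trizol and a column with DNase digestion were used to isolate RNA, and an Illumina kit that marks strand to prepare mRNA libraries. The authors deposited raw counts per gene, made with FastQC, cutadapt, STAR and HTSeq on mm10 per the submitters' processing notes, with versions, annotation and strand setting not given in the sources used here. Coordinates are those of the table (mm10).

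Libraries were grouped by age from the titles, and 18 month replicates 3 and 4 were summed (chi-square per gene below 2, over genes with at least 20 summed counts). Counts were filtered with filterByExpr (20331 genes kept), scaled by TMM and tested with edgeR 4.0.16 in R 4.3.3 (glmQLFit with robust estimation, glmQLFTest, two-sided, all 3 ages in 1 model, 7 residual degrees of freedom, common biological coefficient of variation 0.32), with Benjamini-Hochberg adjustment over all tested genes and a threshold of 0.05. The SE is the log2 fold change over the square root of F. Lengths are principal transcripts of GENCODE M21. The test was run first on simulated data.

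Total counts of 5231724 to 33407509 set the precision, and genes of few counts carry more counting error.

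As a check of pairing, deviations from the mean of each age were correlated between samples of equal number. Between 24 and 18 months the 3 correlations were 0.389, 0.280 and 0.147, so a fit with a replicate block stands beside that comparison, although no label says what the numbers share. Printed values come from the fit without the block. Between 2 months and the older ages, correlations of samples of equal number ran from -0.113 to 0.0628.

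The members and lists were chosen with earlier results of these data known. Values in every sample are given, in each of 7 role groups, for the member of highest mean CPM, the 2 of smallest and the 1 of largest adjusted p at 18 months, any called between 24 and 18 months and any of opposite direction (23 members). In the 3 lists of other cell cycle genes, those 3 of smallest adjusted p at 18 months and any called against the list's direction are named. Cell type marker lists are given by counts and sums, and single markers in the text were chosen after their values were seen. Alternatives were other scaling, filters, samples in the fit, separate libraries, DESeq2 1.42.0, limma 3.58.1 (voom with quality weights), a replicate block and leaving out each sample.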

Additional observations from a re-analysis of the deposited data

How the results depend on the processing

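All 39 members had estimates below 0 at both older ages against 2 months under each of the 19 alternatives, while the count that fell moved. At 18 months 27 fell, with 3 without the summed 18 month sample and 5 to 37 without each other sample. With 1 sample left out, 0.514% to 7.11% of all genes fell at that age. With the replicate number as a block, which the check of pairing did not bear out for comparisons with 2 months, 14 fell at 18 months and 26 at 24 months. Of all genes 2.23% and 11.9% fell with the block. At 24 months 32 fell, and leaving out 1 sample gave 22 to 38, against 8.69% to 15.6% of all genes. Other settings gave 19 to 34 for the younger and 23 to 39 for the older of both ages. Over all genes 2.08% to 9.74% and 7.08% to 23.0% fell in those settings. Among those other settings, the lowest member count at each age came with library totals alone, which moved the median of all genes to 0.10 and 0.22. The split of all genes then moved towards genes that rose, as given above. Between 24 and 18 months no member was called under any alternative, the replicate block included, and the median log2 fold change, -0.06, was -0.19 with limma-voom. Over all genes DESeq2 called 194 there, against 1 with edgeR. The cause of these shifts was not tested. The 253 counts of Fen1 limit its precision.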
